A study of Mus musculus with 59 samples.

Results

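The genes described here are 10 transcriptional targets of the tumor suppressor p53: Cdkn1a, Mdm2, Ccng1, Bax, Bbc3, Pmaip1, Sesn2, Phlda3, Zmat3 and Trp53inp1. They were followed across mouse serous epithelial ovarian cancers (SEOCs) whose p53 is deleted or carries the missense mutation R172H. A member was measured by every probe set that the platform annotation assigns to that gene alone, which gave 16 probe sets for 9 of the 10 genes, out of 45037 probe sets naming 18193 genes in all. No probe set in that annotation carries the name Bax, and Bax is not analysed here. Where a gene had several probe sets, the one with the highest mean over all arrays led, and its values are given unless another is named.

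p53 is a transcription factor that is held at a low level in unstressed cells and accumulates after DNA damage or oncogene activity. It then binds response elements near its targets and raises them, and their products arrest the cell cycle, trigger apoptosis, adjust growth signaling and, through Mdm2, remove p53 itself. R172H is the mouse counterpart of a hot-spot mutation of human cancers that disrupts the DNA-binding domain. Most of these genes also answer to other transcription factors, so that their transcripts can be present in cells without p53.

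All tumors carried the transgene TgK18GT121, in which a Krt18 promoter drives, after Cre recombination, a T antigen fragment that inactivates the retinoblastoma family, and Cre was delivered by an adenovirus injected into the ovarian bursa. The groups were 8 published primary tumors with p53 R172H over a floxed p53 allele (labelled p53 m/fl; 3 Brca1-deficient, 5 Brca2-deficient), 18 published primary tumors with both p53 alleles deleted (p53 fl/fl; 14 Brca1-deficient, 4 with wild type Brca), 5 newly profiled p53-deleted primary tumors (2 Brca1-deficient, 3 Brca wild type), 25 p53-deleted tumors grown from fragments transplanted into syngeneic females (8, 9, 4, 2 and 2 arrays at passages 1, 2, 3, 4 and 5) and 3 samples of wild type normal ovarian epithelium. The strain was FVB/NJ throughout, the labels state no ages, and passages 3 to 5 held Brca1-deficient tumors only. The labels do not give the line of origin of a passaged tumor, and tumors of 1 line are not independent. The paper describes the new set as primary tumors matched with transplants derived from them, and only 2 Brca1-deficient and 3 Brca wild type primary tumors were profiled there. The fits by passage and by Brca1 genotype in that set count each tumor as independent, so their p-values may be too small. Nothing tells whether the 3 normal samples are 3 mice, and p-values then measure only the spread between these arrays, which may be technical.

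Array pairs 65021 and 64644 (passage 3) and 62803 and 61362 (passage 2, with opposite Brca1 labels) were near-identical, with SDs of the log2 difference of 0.0722 and 0.0803 over all probe sets, against 0.209 for the next closest pair, so each pair was averaged and counted once. This left 54 tumor samples, 23 of them passaged. Tumor 30200 was profiled in both sets and stands for 2 of the 54. Over 8 oocyte markers the mean log2 value was 5.23 to 5.67 in R172H tumors and 5.14 to 5.71 in published p53-deleted tumors, against 8.74 to 9.84 in the samples labelled normal epithelium. Over 8 measured granulosa, theca and luteal markers it was 7.12 to 8.58 in R172H tumors and 7.01 to 8.73 in p53-deleted tumors, against 10.19 to 10.39 in normal samples. Over 7 fibroblast markers it was 8.45 to 10.36 in R172H tumors and 7.97 to 11.71 in p53-deleted tumors, against 11.62 to 11.68 in normal samples. Markers of ovarian surface epithelium lay at 9.90 to 11.75 in R172H tumors and 9.85 to 11.85 in p53-deleted tumors, against 11.32 to 11.49 in normal samples. Over 8 epithelial markers the mean was 11.38 to 11.64 in R172H tumors and 10.65 to 12.48 in p53-deleted tumors, against 10.14 to 10.86 in normal samples, and 5 of the 8 were higher in each tumor group. Over 5 T cell markers it was 5.61 to 6.88 in R172H tumors, where 2 of the 5 were lower, and 5.57 to 6.32 in p53-deleted tumors, where 4 were, against 6.53 to 7.91 in normal samples. The part of these other cells in any difference from normal samples was not tested, and in bulk tissue fewer cells of a type and less RNA per cell cannot be told apart.

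The DNA that p53 reads at such genes is a pair of adjacent half-sites of 10 bases, each with a 4-base core of C, 2 variable bases and G. The 250 bases before each start site, in promoter windows from RefSeq on mouse build GRCm38.p6, were searched for the p53 response element with no gap between half-sites, both cores kept and at most 3 letters off. The element reads alike on both strands, so 1 search covered both. Windows were held for 7 members, namely Cdkn1a, Mdm2, Ccng1, Bax, Bbc3, Sesn2 and Phlda3, and 3 of these 7 had a match, against 1.36% of the 27025 genes with a window. The rule was chosen with these windows in view, and a match is a run of letters, not evidence of binding. They are shown because these genes were set against normal tissue below, with the cores in capitals.
Cdkn1a: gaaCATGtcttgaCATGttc
Ccng1: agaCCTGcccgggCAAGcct
Bbc3: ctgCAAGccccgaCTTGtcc
There were 32851 windows for the 27025 genes, so a gene can have more than 1 start site. The Cdkn1a match, on the plus strand at chr17:29090928-29090947, ended 32 bases before the start site of its window and was 1 letter off. The Ccng1 match, on the minus strand at chr11:40755462-40755481, was also 1 letter off and ended 176 bases before the start site of its window. Matches at most 1 letter off were found for 19 of the 27025 genes. The Bbc3 match, on the plus strand at chr7:16309486-16309505, was 3 letters off.

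**Figure D1:**
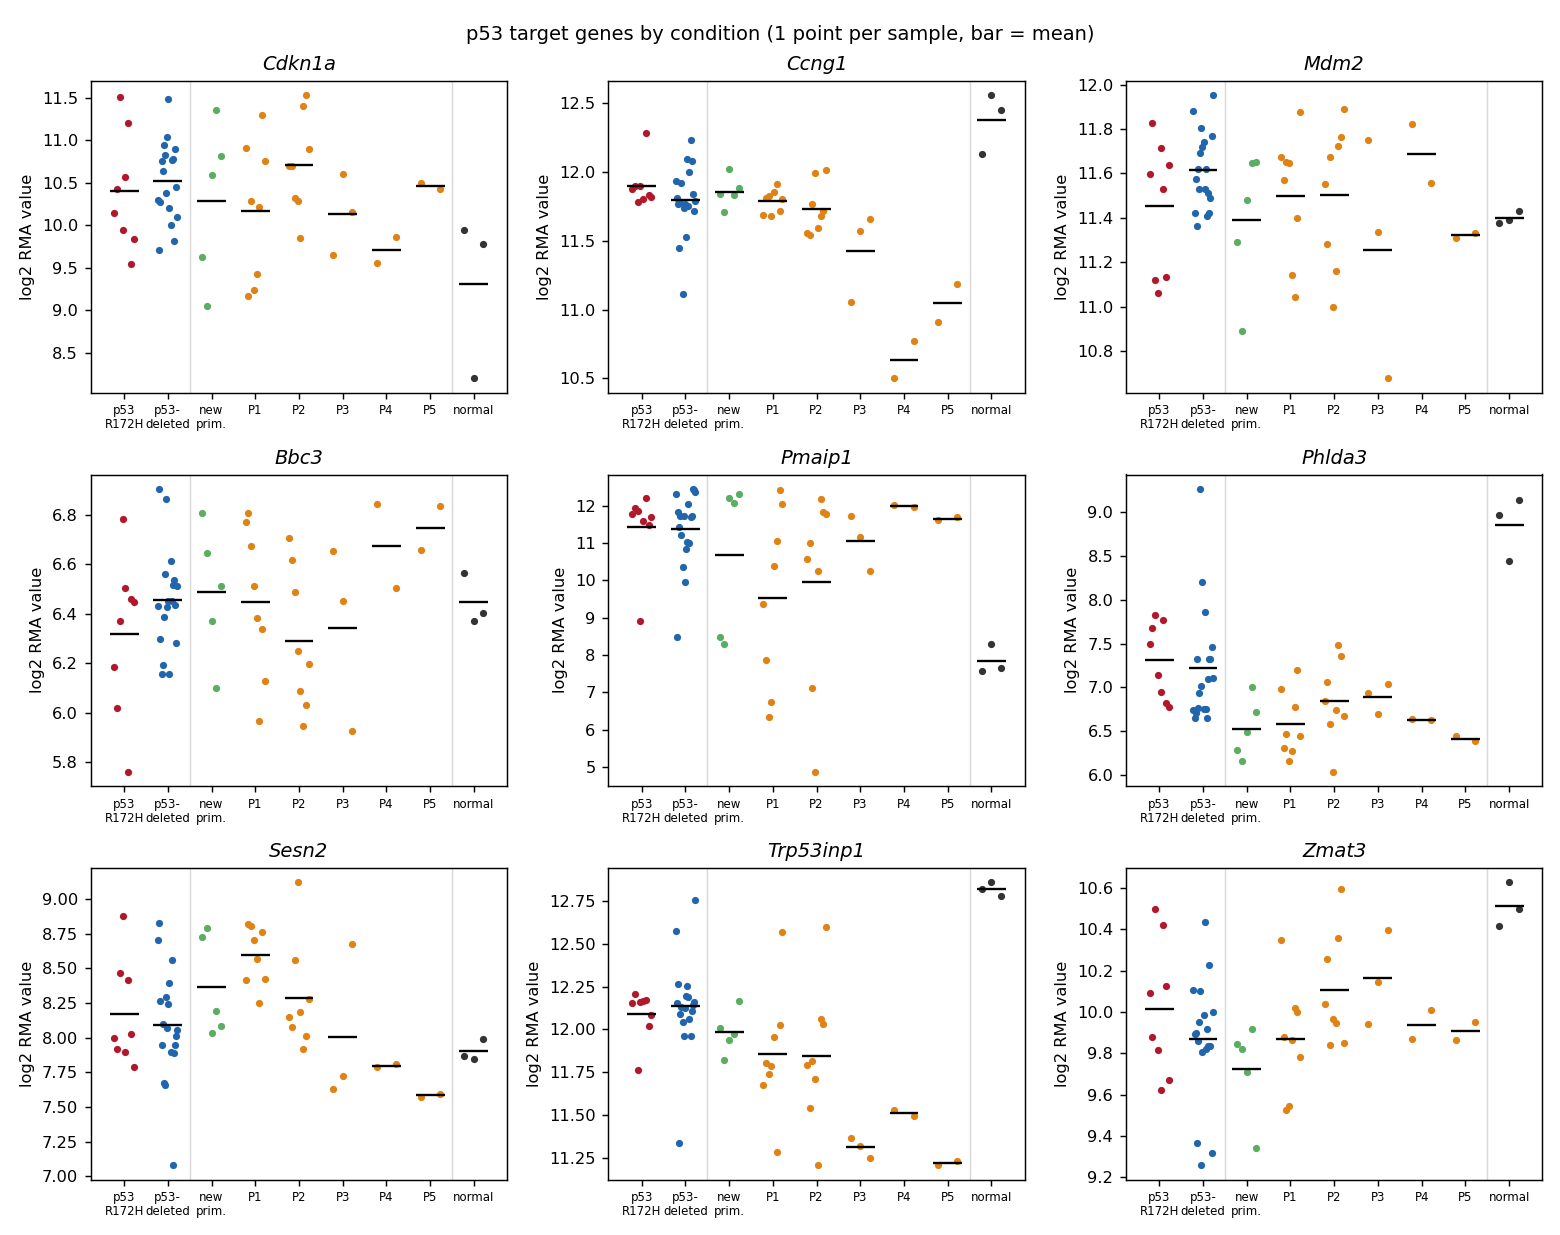
Log2 RMA value (vertical axis) of the leading probe set of each of the 9 measured members in every sample (points), by condition (horizontal axis), with the mean as a bar. Phlda3, Trp53inp1, Ccng1 and Zmat3 lie lower in nearly all tumors than in the 3 normal samples, Pmaip1 lies higher in most and ranges from 4.87 to 12.42 in passaged tumors, and Mdm2, Bbc3 and Sesn2 straddle the normal values.

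Against normal epithelium, the members did not move as a block in tumors with mutant p53. In R172H tumors 4 of the 9 members passed the test at an adjusted p under 0.05, Pmaip1 higher and Phlda3, Trp53inp1 and Ccng1 lower, where 32.4% of all genes passed, 12.7% higher and 19.8% lower. In p53-deleted tumors 6 of 9 passed, the same 4 with Cdkn1a higher and Zmat3 lower, where 38.9% of all genes passed, 14.4% higher and 24.5% lower. The members' median log2 difference was -0.13 in R172H tumors, beside -0.11 over all genes, and 0.01 in p53-deleted tumors, beside -0.11. Both comparisons use the same 3 normal samples, so their values stand side by side and are not independent of each other. The tests were limma's moderated tests on log2 values with Benjamini-Hochberg adjustment over all 45037 probe sets.

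Cdkn1a encodes p21, which inhibits cyclin-dependent kinases and arrests the cell cycle. Its log2 values were 9.55, 10.29 and 11.52 (lowest, median and highest) in the 8 R172H tumors and 9.72, 10.55 and 11.49 in the 18 p53-deleted tumors, against 9.94, 8.20 and 9.78 in the 3 normal samples. Thus 6 of 8 and 16 of 18 tumors lay above all normal samples, and 1 normal sample lay far below the other two. The difference was 1.22 (SE 0.32, a 2.32-fold higher level) in p53-deleted tumors, with an adjusted p of 0.00482, and 1.09 (SE 0.46) in R172H tumors, with an adjusted p of 0.0931. Without the low normal sample, normal replicate 2, the difference in p53-deleted tumors was 0.66 with an adjusted p of 0.123 and no longer passed. A second Cdkn1a probe set differed by 0.64 in p53-deleted tumors (adjusted p = 0.052) and by 0.60 in R172H tumors (adjusted p = 0.255).

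Ccng1 encodes cyclin G1, a p53-induced cyclin that acts with protein phosphatase 2A on Mdm2. Its values were 11.78, 11.85 and 12.28 in R172H tumors and 11.11, 11.78 and 12.23 in p53-deleted tumors, against 12.13, 12.56 and 12.45 in normal samples. In each tumor group 1 tumor reached into the normal range and the others lay below it. The log2 difference was -0.48 (SE 0.13, adjusted p = 0.0172) in R172H tumors and -0.59 (SE 0.16, adjusted p = 0.00528) in p53-deleted tumors. The other 2 Ccng1 probe sets were also lower in p53-deleted tumors, by -0.96 and -0.66, and both passed, while in R172H tumors 1 of them passed at -0.78 and the other stood at -0.48. The R172H call was lost without normal replicate 2 (adjusted p = 0.0786) and without normal replicate 3 (adjusted p = 0.0672).

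Mdm2 encodes the ubiquitin ligase that marks p53 for degradation and closes its feedback loop. Its values were 11.06, 11.56 and 11.83 in R172H tumors and 11.36, 11.60 and 11.95 in p53-deleted tumors, against 11.38, 11.39 and 11.43 in normal samples. Tumors lay on both sides of a tight normal range, with 5 of 8 R172H and 14 of 18 p53-deleted tumors above it. Neither difference passed, at 0.05 (95% interval -0.34 to 0.44) in R172H tumors and 0.22 (95% interval -0.01 to 0.44) in p53-deleted tumors. Another of the 3 Mdm2 probe sets was higher in p53-deleted tumors by 0.57 (adjusted p = 0.0342), and the mean of the 3 was higher by 0.45 (adjusted p = 0.037).

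Bbc3 and Pmaip1 encode the BH3-only proteins Puma and Noxa, which promote apoptosis by binding Bcl2-type survival proteins. Bbc3 was dim in all groups, at 5.76, 6.41 and 6.79 in R172H tumors and 6.16, 6.44 and 6.91 in p53-deleted tumors, against 6.57, 6.37 and 6.40 in normal samples. The groups overlapped throughout, and the differences were -0.13 (95% interval -0.54 to 0.28) in R172H tumors and 0.01 (95% interval -0.26 to 0.27) in p53-deleted tumors. Pmaip1 had 8.92, 11.73 and 12.21 in R172H tumors and 8.49, 11.71 and 12.46 in p53-deleted tumors, against 7.58, 8.29 and 7.64 in normal samples. All 8 and all 18 tumors lay above every normal sample. The log2 difference was 3.60 (SE 0.57, adjusted p = 0.00114), a 12.1-fold higher level, in R172H tumors and 3.53 (SE 0.57, adjusted p = 5.28e-05), 11.6-fold, in p53-deleted tumors, the widest changes among the members. Pmaip1 thus stood higher in tumors that lacked p53 than in tissue with wild type p53, while Bbc3 did not pass in either group.

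**Figure D2:**
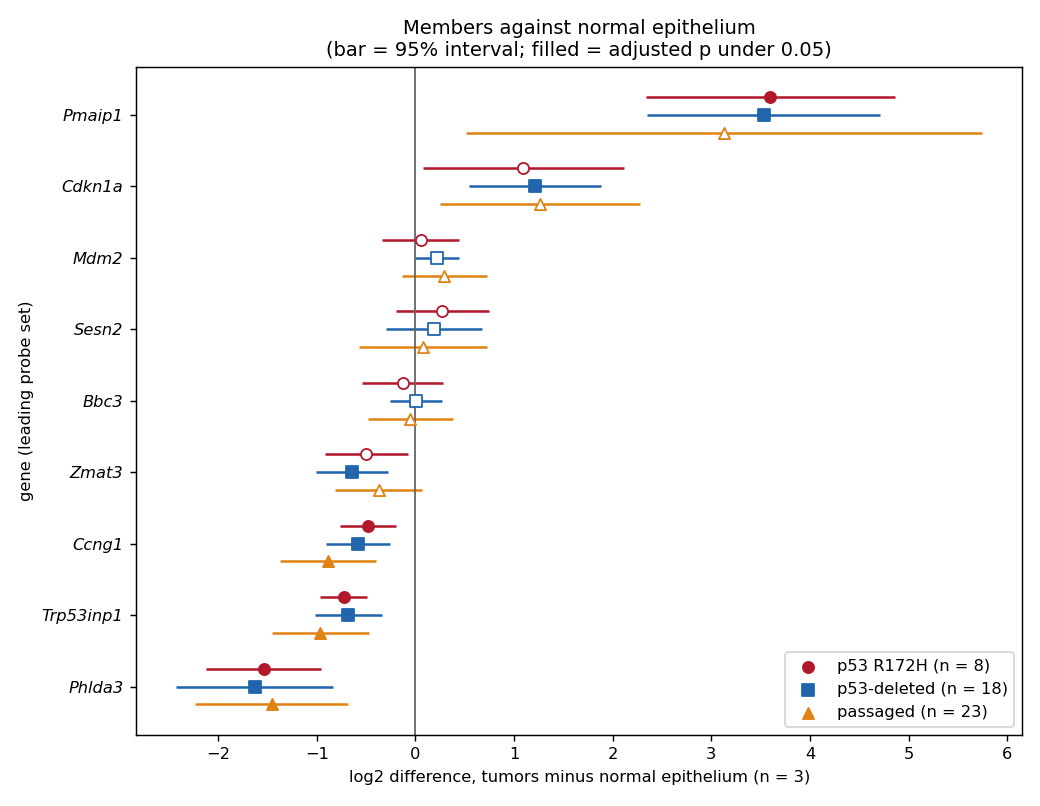
Log2 difference of each member from normal epithelium (horizontal axis; n = 3 normal samples), with 95% intervals, in R172H (circles, n = 8), p53-deleted (squares, n = 18) and passaged tumors (triangles, n = 23); filled symbols passed at an adjusted p under 0.05. Pmaip1 stands highest, at 3.60 in R172H and 3.53 in p53-deleted tumors, and Phlda3 lowest, at -1.54 and -1.63.

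Phlda3 encodes a protein with a pleckstrin homology domain that competes with Akt for membrane lipids and so represses Akt. Its values were 6.78, 7.32 and 7.83 in R172H tumors and 6.65, 7.06 and 9.26 in p53-deleted tumors, against 8.97, 8.44 and 9.13 in normal samples. All 8 R172H tumors and 17 of 18 p53-deleted tumors lay below every normal sample, and the remaining one, Brca1-deficient tumor 235746, lay above all of them. The log2 difference was -1.54 (SE 0.27, 2.91-fold lower, adjusted p = 0.00176) in R172H tumors and -1.63 (SE 0.38, 3.1-fold lower, adjusted p = 0.00191) in p53-deleted tumors. Without tumor 235746, a setting chosen after seeing the data, the second difference was -1.75 with an SE of 0.26. That tumor also had the highest mean over the 8 epithelial markers, 12.48, and the lowest over the 6 ovarian surface epithelium markers, 9.85, among the 18 p53-deleted tumors, and their part in its Phlda3 value was not tested.

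Sesn2 encodes sestrin 2, which restrains mTORC1 under stress. It had 7.79, 8.01 and 8.88 in R172H tumors and 7.08, 8.06 and 8.83 in p53-deleted tumors, against 7.87, 7.85 and 7.99 in normal samples, and tumors lay on both sides of the normal values. The differences, 0.27 (95% interval -0.20 to 0.74) and 0.19 (95% interval -0.30 to 0.67), did not pass, and its second probe set pointed the other way, at -0.32 and -0.45, also without passing.

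Trp53inp1 encodes a nuclear stress protein that acts in p53-dependent arrest, apoptosis and autophagy. Its values were 11.76, 12.16 and 12.21 in R172H tumors and 11.34, 12.13 and 12.75 in p53-deleted tumors, against 12.82, 12.86 and 12.78 in normal samples. Every one of these 26 tumors, and all 28 tumors of the new set, lay below the lowest normal sample by the leading probe set, in values not adjusted for set. By the second probe set 46 of the 54 tumor samples did. The difference was -0.73 (SE 0.11, adjusted p = 0.000729) in R172H tumors and -0.68 (SE 0.16, adjusted p = 0.00238) in p53-deleted tumors, and the second probe set gave -0.89, which passed, and -0.67, which did not (adjusted p = 0.0634). Zmat3 encodes a zinc finger protein that binds RNA and alters splicing and transcript stability. It had 9.62, 9.99 and 10.50 in R172H tumors and 9.26, 9.89 and 10.44 in p53-deleted tumors, against 10.41, 10.63 and 10.50 in normal samples. The difference was -0.65 (SE 0.18, adjusted p = 0.00605) in p53-deleted tumors, 17 of which lay below all normal samples, and -0.50 (SE 0.19, adjusted p = 0.0693) in R172H tumors, 6 of 8 of which did. With the 5 Brca2-deficient R172H tumors only, it was -0.70 and passed (adjusted p = 0.00925). The 3 Brca1-deficient R172H tumors had a mean of 10.35, beside 10.51 in normal samples, and 2 of the 3 lay within the normal range.

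The wider p53 network was counted over lists of genes of general p53 biology, which were chosen with earlier results of these data known. Of 35 measured other p53 targets, 5 were higher and 5 lower in R172H tumors, with a median difference of -0.13, and 7 were higher and 8 lower in p53-deleted tumors, with a median of -0.02. These shares lie near the 32.4% and 38.9% of all genes that passed in the same comparisons. Those with the widest changes in p53-deleted tumors were Thbs1, an inhibitor of angiogenesis, at -2.0, the receptor kinase Epha2 at 1.44, the damage sensor Ddb2 at 1.32 and Trp53i11 at 1.07. Of 18 regulators and relatives of p53, 8 were higher and 1 lower in R172H tumors and 11 higher and 2 lower in p53-deleted tumors, with a median of 0.49 in both, where 12.7% of all genes were higher and 19.8% lower in R172H tumors and 14.4% higher and 24.5% lower in p53-deleted tumors. Cdkn2a, whose locus encodes Arf, an inhibitor of Mdm2, was higher by 5.06, the checkpoint kinase Chek2 by 1.13 and the p53 inhibitor Mdm4 by 1.06 in p53-deleted tumors. Trp63, a p53 relative that oocytes also make, was lower by -3.80, beside an oocyte marker list of which all 8 genes were lower, and the part of oocytes in that value was not tested.

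Of 17 measured Bcl2 family and caspase genes, 4 were higher and 2 lower in R172H tumors (median 0.0028) and 5 higher and 3 lower in p53-deleted tumors (median -0.076), again beside 32.4% and 38.9% of all genes. They included the survival gene Bcl2l1, higher by 2.11, its BH3-only antagonist Bcl2l11, higher by 1.34, the initiator caspase gene Casp8, higher by 1.36, and Bcl2, lower by -1.28, in p53-deleted tumors. Of 5 other inhibitors of cyclin-dependent kinases, 4 were higher in R172H tumors (median 1.38) and 3 in p53-deleted tumors (median 1.01). In the second group Cdkn2c was higher by 1.42 and Cdkn1b and Cdkn2d by 0.73 each. Over all genes, 12.7% were higher in R172H and 14.4% in p53-deleted tumors. Of 19 measured cell cycle genes that p53 represses through p21 and the DREAM complex, 18 were higher in each tumor group, beside the same shares. Their medians were 1.83 in R172H and 1.70 in p53-deleted tumors, beside -0.11 over all genes. Among these genes, Cdc25c was higher by 2.99, Cdc20 by 2.70 and Kif23 by 2.51 in p53-deleted tumors, in which Cdkn1a itself was also higher. All tumors, unlike the normal samples, also carried the transgene that inactivates the retinoblastoma family. Its part and that of p53 cannot be told apart in any comparison with normal samples. Of 7 sestrin and stress response genes that accompany Sesn2, 4 were higher and 1 lower in each tumor group, where 32.4% and 38.9% of all genes passed. The medians were 0.92 in R172H and 1.11 in p53-deleted tumors, with Atf3 at 2.40, Trib3 at 1.46 and Ddit3 at 1.31 in p53-deleted tumors.

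Whether a mutant p53 protein and the absence of p53 left different target levels was asked in Brca1-deficient tumors, 3 with R172H and 14 with p53 deleted. None of the 9 members passed by limma, where 0.0715% of all genes passed. An unadjusted p under 0.05 was found for 1949 of the 18193 genes and for 3 of 9 members. These 3 were Mdm2, Zmat3 and Bbc3. Mdm2 had 11.12, 11.53 and 11.13 in the 3 R172H tumors, against 11.41, 11.66 and 11.95 (lowest, median and highest) in the 14 p53-deleted ones, a difference of -0.39 (SE 0.12, adjusted p = 0.266). Zmat3 had 10.50, 10.42 and 10.13 in the R172H tumors, against 9.26, 9.91 and 10.23, a difference of 0.48 (SE 0.17, adjusted p = 0.321). Bbc3 had 6.37, 5.76 and 6.46, against 6.19, 6.45 and 6.91, a difference of -0.31 (SE 0.15, adjusted p = 0.493). In each of the 3 genes the R172H tumors overlapped the p53-deleted ones.

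For Cdkn1a the difference between R172H and p53-deleted tumors was 0.23, with a 95% interval of -0.55 to 1.01, and for Pmaip1 it was 0.52, with an interval of -0.83 to 1.86. The interval for Ccng1, -0.12 to 0.52, and that for Trp53inp1, -0.50 to 0.08, were narrower. No gene of the 6 network lists passed in this comparison either. Within R172H tumors, 5 Brca2-deficient against 3 Brca1-deficient, no member passed by limma, where 0% of all genes passed. An unadjusted p under 0.05 was found for 1652 of the 18193 genes and for 1 member, Zmat3 at -0.53 (SE 0.14, adjusted p = 0.383). The 5 Brca2-deficient tumors, at 9.62 to 10.09, all lay below the 3 Brca1-deficient ones, at 10.13 to 10.50, for that gene.

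**Figure D3:**
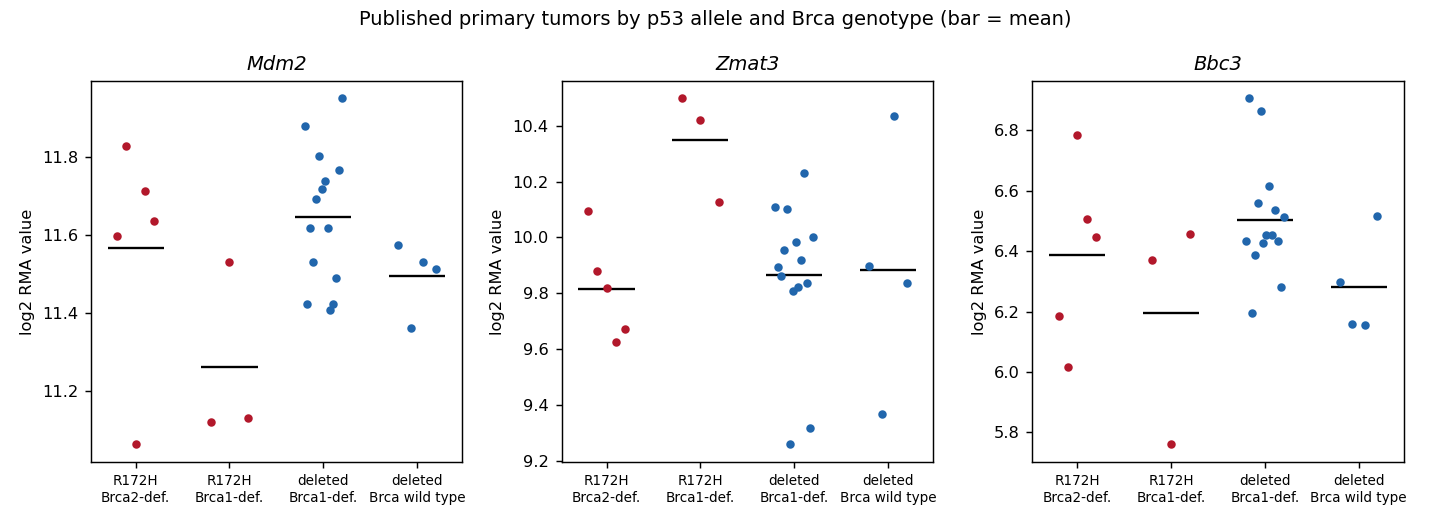
Log2 RMA values (vertical axis) of Mdm2, Zmat3 and Bbc3 in published primary tumors (points, with the mean as a bar), split by p53 allele and Brca genotype (horizontal axis). Of 3 Brca1-deficient R172H tumors, 2 had Mdm2 values of 11.12 and 11.13, and the lowest of the 14 p53-deleted ones had 11.41.

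In the newly profiled set, transplantation itself was compared with primary growth with Brca1 genotype in the model, over 22 passaged and 5 primary tumors. None of the 9 members passed by limma, where 0% of all genes passed. None had an unadjusted p under 0.05, where 1019 of the 18193 genes did. Member differences ran from -0.43 for Pmaip1, with a 95% interval of -2.53 to 1.68, to 0.26 for Zmat3, with an interval of -0.01 to 0.53. The comparison therefore bounded Zmat3 more closely than Pmaip1.

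Pmaip1 was the member that varied most among tumors of the new set. The 5 primary tumors had 8.49 (tumor 30200), 8.30 (29255), 12.21 (39877), 12.07 (34429) and 12.30 (32233), so 2 stood near the normal samples and 3 far above. Passage 1 tumors had 6.35, 9.88 and 12.42 (lowest, median and highest) and passage 2 tumors 4.87, 10.78 and 12.19, and 4 of the 23 passaged tumors lay below all normal samples, without adjustment for set. In the new set 3 of 11 Brca wild type and 0 of 16 Brca1-deficient tumors did so, with SDs of 2.90 and 1.27. The later passages held Brca1-deficient tumors only. Passage 3 tumors had 11.71, 11.17 and 10.26, passage 4 tumors 12.02 and 11.95, and passage 5 tumors 11.61 and 11.69. The SD over the 23 passaged tumors was 2.17, compared with 0.40 for Ccng1 and 0.26 for Zmat3. Tumor 30200, profiled in both sets, gave 8.49 in each for Pmaip1, and its 2 arrays differed by 0.36 at most over the 9 leading probe sets, for Phlda3.

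Over the series of passages in Brca1-deficient tumors, 3 of 9 members, Ccng1, Sesn2 and Trp53inp1, had a falling slope that passed, where 14.6% of all genes passed and 6.31% fell. The fit counted its 16 tumors as independent although their lines of origin may be few, and passage and line of origin cannot be told apart. Ccng1 had 11.84 and 12.02 in the 2 primary tumors, 11.69, 11.81, 11.85 and 11.91 at passage 1, 11.55, 11.54 and 11.59 at passage 2, 11.06, 11.57 and 11.66 at passage 3, 10.50 and 10.77 at passage 4 and 10.91 and 11.19 at passage 5. All 4 tumors of passages 4 and 5 lay below every primary, passage 1 and passage 2 tumor. The slope was -0.23 per passage (SE 0.04, adjusted p = 0.00156), and the other 2 Ccng1 probe sets had slopes of -0.33 and -0.26, which also passed.

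Sesn2 had 8.72 and 8.04 in the primary tumors, 8.41, 8.82, 8.57 and 8.25 at passage 1, 8.15, 8.08 and 8.18 at passage 2, 7.63, 7.72 and 8.67 at passage 3, 7.79 and 7.81 at passage 4 and 7.57 and 7.60 at passage 5. Its slope was -0.19 per passage (SE 0.05, adjusted p = 0.0135), and its second probe set gave -0.19 as well (adjusted p = 0.0232). Trp53inp1 had 12.01 and 11.94 in the primary tumors, 11.67, 11.81, 11.96 and 11.28 at passage 1, 11.79, 11.54 and 11.21 at passage 2, 11.37, 11.32 and 11.25 at passage 3, 11.53 and 11.49 at passage 4 and 11.21 and 11.23 at passage 5. Its slope was -0.13 per passage (SE 0.03, adjusted p = 0.0212), while its second probe set, also at -0.13, did not pass (adjusted p = 0.0726). Pmaip1 had a slope of 0.44 (SE 0.16, adjusted p = 0.0898) and did not pass.

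The 3 calls depended on the last passages. Without passages 4 and 5 none of the 9 members passed, and 0% of all probe sets did, while the slopes were -0.18 for Ccng1, -0.17 for Sesn2 and -0.21 for Trp53inp1. Without tumor 65026, replicate 1 of passage 5, 1 member passed, where 6.2% of all probe sets did. Without tumor 65076, replicate 2, 2 members passed, where 6.5% of all probe sets did. The 2 tumors of passage 5 were also the closest pair of arrays that was not averaged. In the same fit 4 of 5 T cell markers, 2 of 3 measured B cell markers, 3 of 6 macrophage markers and 3 of 6 ovarian surface epithelium markers rose, as did 1 of 7 fibroblast and 1 of 6 endothelial markers, 2 of 8 epithelial markers fell, and their part in these slopes was not tested.

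**Figure D4:**
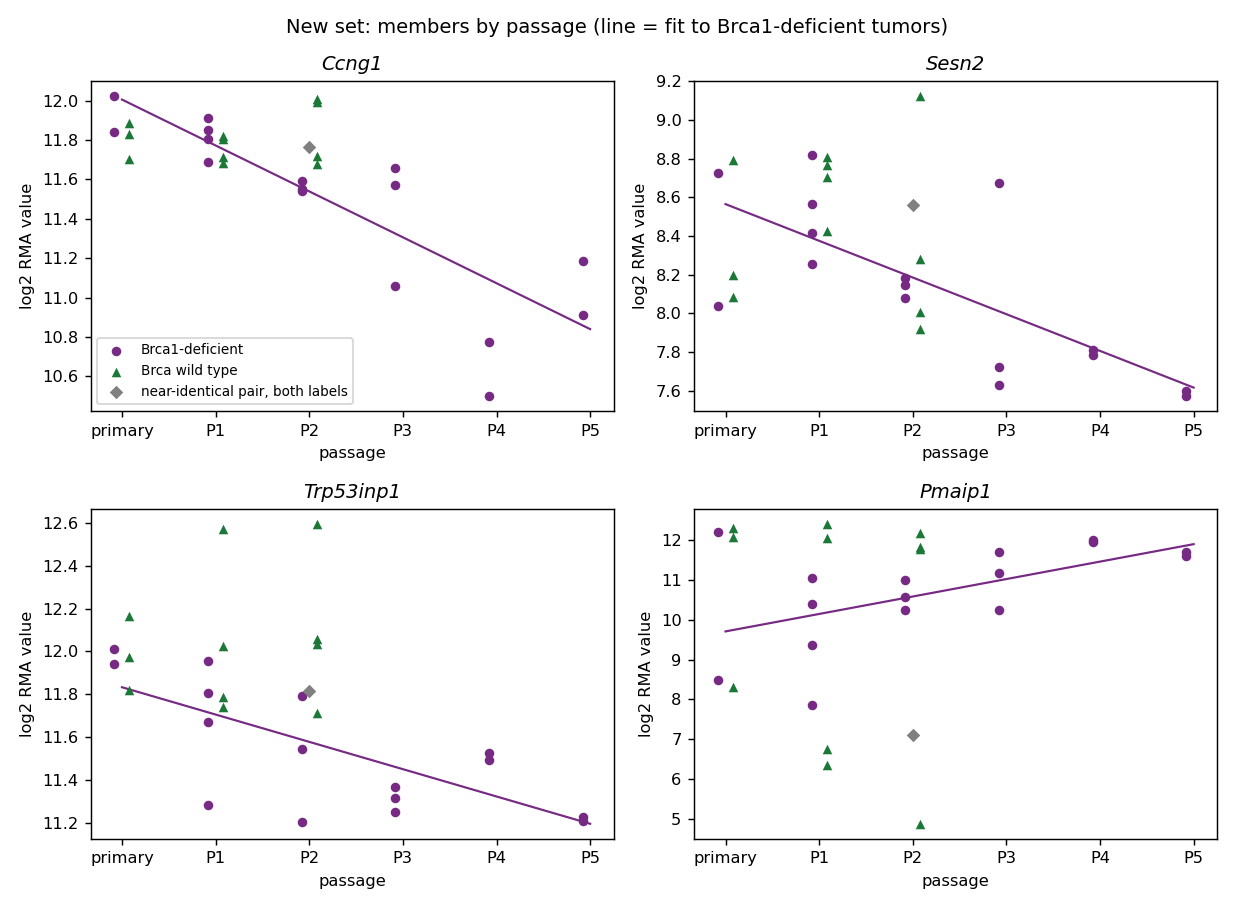
Log2 RMA values (vertical axis) of Ccng1, Sesn2, Trp53inp1 and Pmaip1 in new primary tumors and at passages 1 to 5 (horizontal axis), with Brca1-deficient tumors as circles, Brca wild type tumors as triangles and the near-identical pair with both labels as a diamond; the line is the slope fitted to Brca1-deficient tumors. Ccng1 falls by 0.23 per passage, and only Brca1-deficient tumors reach passages 3 to 5.

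Passaged tumors were set against normal epithelium with a term for the set, since normal samples were profiled in the published set only. Here 3 of 9 members passed, where 27.3% of all genes passed and 17% were lower, and all 3 were lower. Phlda3 had 6.04, 6.68 and 7.49 in the 23 passaged tumors, against 8.97, 8.44 and 9.13 in normal samples, a difference of -1.46 (SE 0.39, adjusted p = 0.00326). Trp53inp1 had 11.21, 11.71 and 12.60, against 12.82, 12.86 and 12.78, a difference of -0.97 (SE 0.25, adjusted p = 0.00213). Ccng1 had 10.50, 11.68 and 12.01, against 12.13, 12.56 and 12.45, a difference of -0.89 (SE 0.24, adjusted p = 0.00452). By these leading probe sets every passaged tumor lay below every normal sample for all 3 genes, in values not adjusted for set. The set term in the fit was estimated from the p53-deleted primary tumors, 18 published and 5 new. The second Trp53inp1 probe set, at -0.79, did not pass (adjusted p = 0.0914), with 3 passaged tumors within the normal range and 1 above it. The other 2 Ccng1 probe sets passed, at -1.03 and -0.93, with 5 and 1 passaged tumors within the normal range and, for the latter, 1 above it. Cdkn1a, at 1.26 (SE 0.51, adjusted p = 0.0532), and Pmaip1, at 3.13 (SE 1.31, adjusted p = 0.0639), did not pass, and both did without the published array of tumor 30200, at 1.31 and 3.30. Cdkn1a also passed without normal replicate 1 (adjusted p = 0.0384) and without normal replicate 3 (adjusted p = 0.0477). Of the 35 other p53 targets, 5 were higher and 6 lower in passaged tumors than in normal samples, and 18 of the 19 cell cycle genes repressed through p21 and DREAM were higher.

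Brca1 genotype was compared within p53-deleted tumors of each set. In published tumors no member passed by limma, where 0.0055% of all genes passed. None had an unadjusted p under 0.05, where 711 of the 18193 genes did. In the new set 1 of 9 passed, where 10.7% of all genes passed, and this was Trp53inp1. It had 11.21, 11.51 and 12.01 in 16 Brca1-deficient tumors, against 11.71, 12.03 and 12.60 in 11 Brca wild type tumors, a difference of -0.48 (SE 0.12, adjusted p = 0.00952), and its second probe set gave -0.61 (adjusted p = 0.019). In the published set the same difference was 0.24 (SE 0.15, adjusted p = 0.923). The difference between the sets was -0.72 (SE 0.20) and did not pass (adjusted p = 0.12). No member passed in that test by limma, where 0.187% of all genes passed. An unadjusted p under 0.05 was found for 1 member and for 2157 of the 18193 genes. With primary tumors and passages 1 and 2 only, the new-set difference was -0.35 (adjusted p = 0.19), and 3 of 6 endothelial markers were lower in Brca1-deficient tumors of that set, whose part was not tested.

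Across the 54 tumor samples, with each set centered on its own mean, members did not vary as 1 group. The correlations are descriptions over arrays that share processing and may share lines of origin, and tumor 30200 enters with an array from each set. Pearson's r was lowest for Pmaip1 with Sesn2, -0.61, and highest for Mdm2 with Trp53inp1, 0.52, Cdkn1a with Phlda3, 0.47, and Ccng1 with Trp53inp1, 0.46. Cdkn1a with Mdm2 gave 0.24, and Cdkn1a with Bbc3 -0.41. Pmaip1 followed the mean of the ovarian surface epithelium markers with r = 0.66 and that of the granulosa, theca and luteal markers with r = -0.65, and Sesn2 followed the surface epithelium markers with r = -0.63.

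The genes most like Cdkn1a over the 54 tumor samples were Rnf115 (r = 0.71), Chst11 (0.70), Prkch, Cdh17 and Nudt17. Those most like Mdm2 were Cpsf6 (r = 0.87), Primpol (0.83), Jmjd1c, Ppp1r12a and 2610005L07Rik. None of these 10 genes is on the lists of p53 targets used here. Those lists hold 9 measured members and 35 other measured targets out of 18193 genes, so nothing can be drawn from their absence.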

How the data were processed

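RNA from flash-frozen tissue was amplified from 10 ng with the Ovation Whole Blood kit and hybridized to Affymetrix mouse arrays. The authors deposited log2 values normalized by RMA, for 59 arrays in 1 table. Both sets stand in that table, and array medians ran from 7.20 to 7.51; whether they were normalized together is not stated. Levels were not compared between genes; the probe sets of 1 gene were ranked by their mean to choose the leading one. Of 45037 probe sets, 34945 name 1 gene in the platform annotation, 932 several and 9160 none. The deposited table that merges mouse and human log2 values was used as an alternative for the mouse columns only, where it holds 4 of the members; its 278 other columns were not used.

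Differences were fitted with limma 3.58.1 in R 4.3.3, using lmFit and eBayes, two-sided, on all probe sets. Features past an adjusted p under 0.05 were counted by the leading probe set of each gene. Brca1 genotype was a covariate where passaged met primary tumors, and set where passaged tumors met normal epithelium. All members are named, with up to 4 genes a list of widest change in p53-deleted tumors and the 5 genes most correlated with Cdkn1a and with Mdm2. Members and lists were chosen with earlier results of these data known. The fits were checked on simulated data. Arrays carry no read depth; the number of arrays limits precision. Alternatives are given in the closing section.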

Additional observations from a re-analysis of the deposited data

Results flagged for a closer look

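For each measured member, the highest and lowest sample of the groups of 4 to 10 samples was set against its neighbor, over 45 groups, of which 3 had a sample far from the others; chance alone gives about 1 in 20. All 3 lay in the 8 R172H tumors, each in a different tumor. Trp53inp1 was 11.76 in tumor 22864, where the nearest of the others had 12.02. Pmaip1 was 8.92 in tumor 23172, where the nearest had 11.47. Ccng1 was 12.28 in tumor 23615, where the nearest had 11.90.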

How the results depend on the processing

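The alternatives changed the features, the filter on low probe sets, array weights, moderation, the merged table, the samples and the covariates. Of 339 tallied member values, 304 kept their direction and their side of the threshold, 15 no longer passed, 14 came to pass and 6 changed sign. The tally took all measured members in the published comparisons with normal epithelium. Elsewhere it took only members picked for the text, and it left out passaged against primary tumors, the published Brca1 comparison and Brca2-deficient against Brca1-deficient tumors. The count of members passing in p53-deleted tumors against normal epithelium was 6, where 39.9% of all probe sets passed. It became 3 with Brca wild type tumors only (29.3% of probe sets) and ran from 5 to 6 leaving out 1 normal sample (31.0% to 33.3%). In R172H tumors it ran from 3 to 4, where 21.8% to 24.0% of probe sets passed leaving out 1 normal sample. The passage slope gave 0 members without passages 4 and 5, where 0% of probe sets passed against 12.2% in the main fit. It gave 1 to 3 leaving out 1 tumor of those passages, where 6.2% to 9.89% of probe sets passed. Passaged tumors against normal epithelium gave 6 members with no set covariate, where 43.7% of probe sets passed against 28.9% in the main fit. That comparison gave 5 without the published array of tumor 30200 (28.5% of probe sets). Leaving out 1 normal sample gave 3 to 4, where at most 24.8% of probe sets passed. Brca1-deficient against Brca wild type in the new set gave 4 members with array weights, where 24.8% of probe sets passed against 9.39% in the main fit. It gave 0 with primary tumors and passages 1 and 2 only (1.95% of probe sets). The difference between sets gave 1 with array weights, where 6.11% of probe sets passed against 0.142% in the main fit. The counts of 0 in R172H against p53-deleted tumors, in passaged against primary tumors, in the published Brca1 comparison and in Brca2-deficient against Brca1-deficient tumors were 0 in every setting run. At most 0.626% of the features tested passed in these settings. Sign changes concerned values that did not pass: in p53-deleted tumors Sesn2 as the mean of its probe sets (-0.13) and Bbc3 with Brca wild type tumors only (-0.16), without normal replicate 2 (-0.029) and without normal replicate 3 (-0.013; 0.069 without normal replicate 1), and in R172H tumors Sesn2 as the mean of its probe sets (-0.022) and Mdm2 with Brca1-deficient tumors only (-0.14). Settings without 1 published tumor were added after seeing the data. No count of members was made in the merged table, and Bbc3 and Phlda3 fell below the filter on low probe sets. The causes were not tested. No paired analysis was possible because the labels tie only 1 tumor, 30200, across groups, and 1 pair allows no block. With 3 normal samples, single arrays can decide a call.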
